A study of Mus musculus with 6 samples.

Results

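Acute-phase genes encode secreted plasma and mucosal proteins whose amounts change when tissue is inflamed or injured, and 8 of them were followed here in breast tumour cells growing in the mouse lung: Lcn2, Orm1, Lrg1, Cp, Saa3, Hp, C3 and Steap4. A probe set was taken where the platform annotation gave it exactly 1 of these symbols, and the brightest one over the 6 arrays stands for its gene. This found 7 of the 8 genes, with 15 of 45037 probe sets, among 18193 genes in all; C3 was not analysed here. The members were chosen by measured values of these arrays, above all the difference between 1 and 2 weeks in vehicle-treated mice, where Lcn2, Orm1, Lrg1 and Cp had the 4 largest increases among 13090 tested genes. That difference is therefore given as a description, with no test.

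The cells were MVT1, a metastatic mouse mammary tumour line that carried a green fluorescent protein tag, and 3000000 of them were injected into a vein of each syngeneic FVB/N mouse. Dosing by gavage began at 1 week, either with 160 mg per kg a day of GW2580, which inhibits the receptor for colony-stimulating factor 1 (CSF1), or with vehicle (hydroxypropylmethylcellulose and Tween-80). Fluorescent cells were sorted from lungs bearing metastases, and the 3 groups were GW2580 at 2 weeks, vehicle at 2 weeks and vehicle at 1 week, with 2 arrays each. All groups thus come from tumour-bearing mice of 1 strain and from 1 tumour line. Because dosing began at 1 week, growth time and dosing cannot be told apart where a 2-week group is compared with vehicle at 1 week. The 2 vehicle groups came from 2 mice each; how many mice stand behind the GW2580 arrays is not stated, so p-values measure the spread between arrays, which may be technical. Values are log2 expression after robust multi-array averaging (RMA), a scale on which 1 unit is a doubling, and levels of different probe sets cannot be compared with each other.

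In the acute-phase response, interleukin-6 acting through STAT3, and interleukin-1 acting through NF-kB and C/EBP factors, switch on a shared group of genes. The response is best known from the liver, but epithelium, macrophages and neutrophils also make some of these proteins. Lipocalin 2 (Lcn2) withholds iron from bacteria by binding their siderophores, orosomucoid 1 (Orm1) is a serum glycoprotein that carries small molecules, and Lrg1 encodes a leucine-rich glycoprotein that modifies TGF-beta signalling in endothelium. Ceruloplasmin (Cp) carries copper and oxidises iron, haptoglobin (Hp) captures free haemoglobin, and serum amyloid A3 (Saa3) is an amyloid A protein made largely outside the liver in mice. Steap4 encodes a membrane metalloreductase induced by inflammation and is not a secreted protein, so the name of the group fits it only as an inflammation-responsive gene.

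The start sites of 5 of the 7 measured members are shown. These genes parted in their values: Lcn2, Lrg1 and Cp had far higher signal at 2 than at 1 week in vehicle mice, and Saa3 and Steap4 did not. Orm1, which was also far higher at 2 weeks, and Hp, which hardly moved, are missing because no start site sequence was available for them. The stretches are RefSeq sequence of build GRCm38.p6 from 250 bases before to 50 after the start, 5′ to 3′ on the gene's strand: Lcn2 at chr2:32387690-32387989 (minus strand), Lrg1 at chr17:56121897-56122196 (minus strand), the second of the 2 listed Cp starts at chr3:19956999-19957298 (plus strand), Saa3 at chr7:46715627-46715926 (minus strand) and Steap4 at chr5:7960222-7960521 (plus strand). Capitals mark matches on either strand to TTGCNNAA (C/EBP), to TTCNNNGAA (STAT) or to GGG and CC with 5 bases between them (NF-kB).
Lcn2: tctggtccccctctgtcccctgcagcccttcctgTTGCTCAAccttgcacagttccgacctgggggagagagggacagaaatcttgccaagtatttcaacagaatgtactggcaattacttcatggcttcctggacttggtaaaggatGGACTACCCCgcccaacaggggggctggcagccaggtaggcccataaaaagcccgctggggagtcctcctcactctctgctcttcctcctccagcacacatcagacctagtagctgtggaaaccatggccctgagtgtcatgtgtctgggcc
Lrg1: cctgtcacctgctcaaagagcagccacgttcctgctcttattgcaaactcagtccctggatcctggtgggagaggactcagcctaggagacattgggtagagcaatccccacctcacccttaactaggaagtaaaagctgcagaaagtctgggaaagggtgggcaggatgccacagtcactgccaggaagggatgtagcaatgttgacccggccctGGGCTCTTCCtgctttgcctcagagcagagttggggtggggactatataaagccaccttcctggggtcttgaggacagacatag
Cp: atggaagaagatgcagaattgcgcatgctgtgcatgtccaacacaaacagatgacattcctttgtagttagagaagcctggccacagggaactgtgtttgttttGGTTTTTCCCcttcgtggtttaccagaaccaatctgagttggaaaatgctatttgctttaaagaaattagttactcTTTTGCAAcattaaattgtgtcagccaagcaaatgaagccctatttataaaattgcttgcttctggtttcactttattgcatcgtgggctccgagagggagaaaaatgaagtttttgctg
Saa3: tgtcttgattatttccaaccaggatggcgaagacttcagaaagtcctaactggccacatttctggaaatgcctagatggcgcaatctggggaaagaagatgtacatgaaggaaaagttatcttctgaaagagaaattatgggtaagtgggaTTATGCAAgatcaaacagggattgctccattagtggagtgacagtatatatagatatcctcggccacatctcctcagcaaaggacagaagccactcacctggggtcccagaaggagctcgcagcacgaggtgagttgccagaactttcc
Steap4: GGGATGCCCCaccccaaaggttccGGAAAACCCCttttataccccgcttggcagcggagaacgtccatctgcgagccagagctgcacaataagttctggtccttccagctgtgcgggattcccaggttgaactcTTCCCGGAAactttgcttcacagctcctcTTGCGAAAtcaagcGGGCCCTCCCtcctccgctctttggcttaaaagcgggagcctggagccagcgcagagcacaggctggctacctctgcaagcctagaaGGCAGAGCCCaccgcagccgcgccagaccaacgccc
Of 32841 promoters of this length, 10.8% held the C/EBP letters, 8.3% the STAT letters and 50.8% the NF-kB letters. Lcn2 held 1 C/EBP match, whose first base lay at -216 from the start, and 1 NF-kB match at -102. Lrg1 held 1 NF-kB match at -34, and Cp held 1 C/EBP match at -70 and 1 NF-kB match at -146. Saa3, with 1 C/EBP match at -99, and Steap4, with 1 C/EBP match at -87, 1 STAT match at -116 and 4 NF-kB matches, held such letters too. The first listed Cp start held none, and a match describes letters in this window only.

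Keratin 8 and 18 genes, markers of simple epithelium, were strong on all 6 arrays (log2 13.52 to 13.82 for Krt8 and 12.93 to 13.44 for Krt18), and the epithelial adhesion gene Epcam read 6.85 to 7.31, while the adhesion and junction genes Cdh1, Cldn4 and Cldn7 lay below the filter on low values, a mean log2 of 4.97. Of 11 hepatocyte markers with a probe set 5 (Ahsg, Apob, Cps1, Cyp2e1 and Fgb) lay below the filter, albumin (Alb) read 4.79 to 5.12, and Ttr and Hnf4a read 6.86 to 7.18 and 6.41 to 6.78. The other Ttr probe sets had means of only 3.10 to 3.29, and the other Hnf4a probe sets of 3.36 to 5.75. Beta-actin signal leaned most to the 3′ end on the second 2-week vehicle array, by 1.2 log2 units, compared with 0.38 to 0.50 elsewhere.

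Between 1 and 2 weeks in vehicle mice the members split. Lcn2 read 11.58 and 12.36 in vehicle mice at 2 weeks, against 7.56 and 8.47 in vehicle mice at 1 week, a difference of 3.96 log2 units (SE 0.59), or 15.5-fold. Orm1 read 9.93 and 10.31 in vehicle mice at 2 weeks, against 6.07 and 7.17 in vehicle mice at 1 week, a difference of 3.50 (SE 0.49), or 11.3-fold. For both genes the 2 times were far apart, with no overlap, although each had 1 lower and 1 higher array at 1 week.

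Lrg1 read 9.08 and 9.36 in vehicle mice at 2 weeks, against 6.07 and 6.28 in vehicle mice at 1 week, a difference of 3.05 (SE 0.52), or 8.29-fold. Cp read 10.85 and 11.12 in vehicle mice at 2 weeks, against 7.65 and 8.67 in vehicle mice at 1 week, a difference of 2.83 (SE 0.29), or 7.10-fold. These groups did not overlap either, and with any 1 array left out the differences of these 4 genes lay between 2.32 and 4.41.

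Hp and Steap4 hardly moved beside them. Hp read 6.997 and 7.06 in vehicle mice at 2 weeks, against 6.68 and 6.66 in vehicle mice at 1 week, a difference of 0.36 (SE 0.15), small but wider than the gap between the arrays of either group. Steap4 read 6.18 and 6.32 in vehicle mice at 2 weeks, against 6.32 and 6.14 in vehicle mice at 1 week, a difference of 0.021 (SE 0.17) with overlapping groups. Its dimmer second probe set overlapped as well, at 5.36 and 6.37 in vehicle mice at 2 weeks, against 5.49 and 5.33 in vehicle mice at 1 week.

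Saa3 ran the other way. It read 7.88 and 8.49 in vehicle mice at 2 weeks, against 9.76 and 8.54 in vehicle mice at 1 week, a difference of -0.96 (SE 0.38). The first 1-week array was the high one, and without it the difference was -0.36. That array also had the highest summed level of 12 fibroblast and smooth muscle markers, at 12.81 on the log2 scale against 10.60 to 12.04 on the others. It was highest for 15 lung epithelium markers too, at 12.30 against 10.88 to 12.03. The first GW2580 array, with the 12.04 for the fibroblast markers, read 8.01 for Saa3. The part of these cell types in the Saa3 difference was not tested.

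Over all tested genes, 6.45% passed limma's adjusted p of 0.05 in this contrast (3.74% higher and 2.71% lower). Groups did not overlap for 5 members with 2 weeks higher and 1 with 2 weeks lower, against 31.5% and 25.2% of tested genes. The contrast chose the members, so nothing is read from these counts. In cells sorted in bulk, fewer cells of a type and less RNA per cell cannot be told apart.

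**Figure D1:**
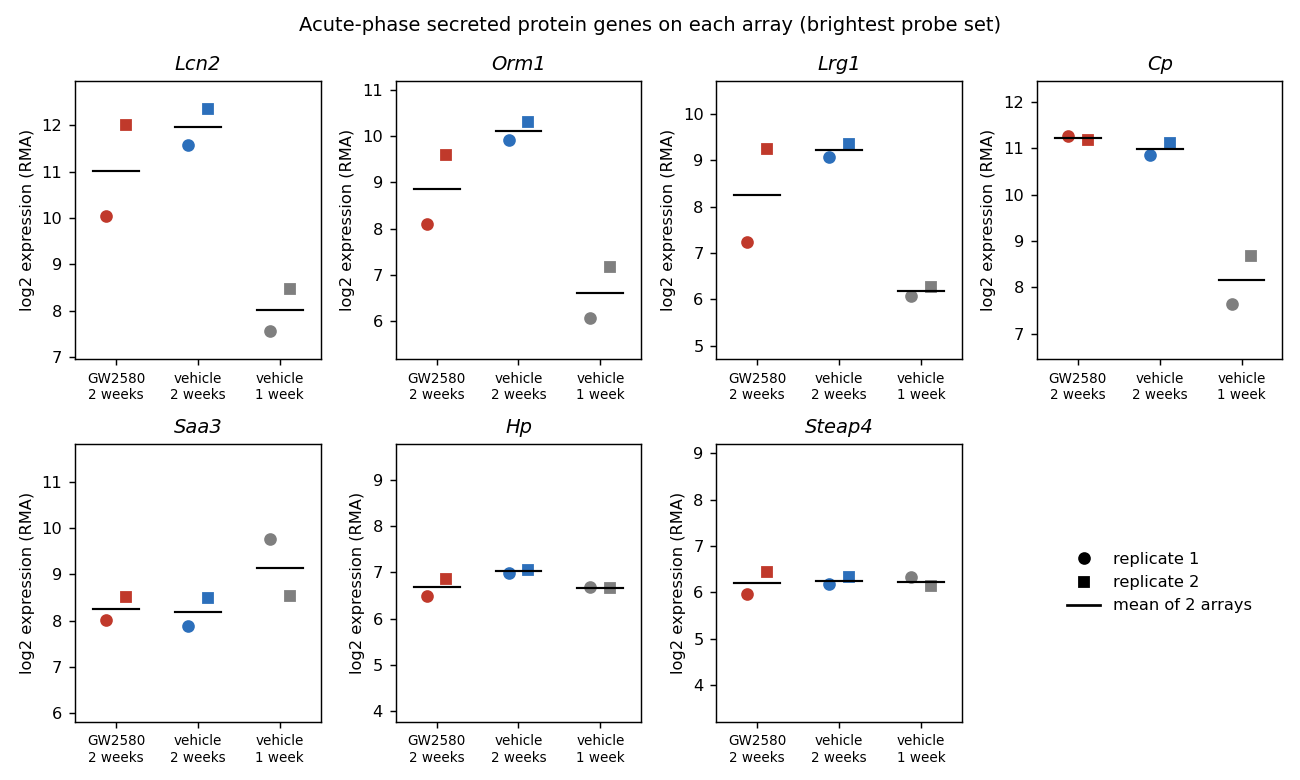
Log2 expression (RMA) of the brightest probe set of each measured member, with circles for replicate 1, squares for replicate 2 and bars for the mean of 2 arrays; each panel spans 6 log2 units. Lcn2, Orm1, Lrg1 and Cp are lowest on the 1-week arrays, and in the GW2580 group Lcn2, Orm1 and Lrg1 lie far apart on the 2 arrays while Cp does not.

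Setting GW2580 against vehicle at 2 weeks asks what inhibiting the CSF1 receptor during growth in the lung does to the tumour cells' genes. The 2-week vehicle arrays also served the contrast that chose the members, so these differences are not independent of the choice. No member passed limma's adjusted p of 0.05, where 0.367% of tested genes did (0.0688% higher and 0.298% lower). An unadjusted p under 0.05 was reached by 2 of the 7 members, Orm1 and Hp, and by 2352 of all 13090 genes.

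Lcn2 read 10.04 and 11.998 with GW2580, against 11.58 and 12.36 with vehicle, a difference of -0.95 (95% interval -2.30 to 0.40, limma adjusted p 0.431). Lrg1 read 7.24 and 9.25 with GW2580, against 9.08 and 9.36 with vehicle, a difference of -0.98 (95% interval -2.19 to 0.23, limma adjusted p 0.37). In both genes the first GW2580 array was low and the second lay between the 2 vehicle arrays.

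Orm1 read 8.11 and 9.59 with GW2580, against 9.93 and 10.31 with vehicle, a difference of -1.27 (95% interval -2.39 to -0.14, limma adjusted p 0.23). Hp read 6.49 and 6.86 with GW2580, against 6.997 and 7.06 with vehicle, a difference of -0.35 (95% interval -0.70 to -0.0049, limma adjusted p 0.272). Both GW2580 arrays lay below both vehicle arrays for these 2 genes, as they did for 31.5% of tested genes.

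Cp read 11.25 and 11.18 with GW2580, against 10.85 and 11.12 with vehicle, a difference of 0.23 (95% interval -0.44 to 0.90, limma adjusted p 0.714); its GW2580 arrays lay just above the vehicle arrays, as they did for 18.3% of tested genes. Saa3 read 8.01 and 8.51 with GW2580, against 7.88 and 8.49 with vehicle, a difference of 0.078 (95% interval -0.80 to 0.96, limma adjusted p 0.939). Steap4 read 5.97 and 6.44 with GW2580, against 6.18 and 6.32 with vehicle, a difference of -0.045 (95% interval -0.45 to 0.36, limma adjusted p 0.918). The second Steap4 probe set read 4.88 and 6.02 with GW2580, against 5.36 and 6.37 with vehicle, also overlapping. The intervals of these 3 genes allow changes of either sign.

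The lower means of Lcn2 and Lrg1 with GW2580 came from 1 array. The first GW2580 array stood below the second by 1.95 log2 units for Lcn2, 2.01 for Lrg1 and 1.48 for Orm1, while the 2 arrays were 0.076 apart for Cp. Of 13090 genes, 8 had a gap between these arrays at least as large as that of Lrg1, 11 as large as that of Lcn2, 36 as large as that of Orm1 and 10123 as large as that of Cp. Without the first GW2580 array the differences from vehicle were 0.029 for Lcn2, 0.026 for Lrg1 and -0.52 for Orm1. Without the second they were -1.93, -1.98 and -2.01, and Lrg1 was the 1 member that then passed (limma adjusted p 0.0277).

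Other genes split the 2 GW2580 arrays as widely, and the following were picked after their values were seen. S100a8 and S100a9, which encode the calprotectin subunits abundant in neutrophils, were low on the same array as Lcn2: S100a9 read 5.75 and 8.60 with GW2580, 7.48 and 8.37 with vehicle at 2 weeks and 6.38 and 7.28 with vehicle at 1 week. The club cell secretory gene Scgb1a1 was high on that array, at 10.91 and 7.59 with GW2580, 6.49 and 8.08 with vehicle at 2 weeks and 11.31 and 9.59 with vehicle at 1 week. The amyloid gene Saa1, just below the filter on low values with a mean of 4.96, was low on it again, at 4.37 and 6.62 with GW2580, 4.998 and 6.06 with vehicle at 2 weeks and 3.89 and 3.85 with vehicle at 1 week.

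**Figure D2:**
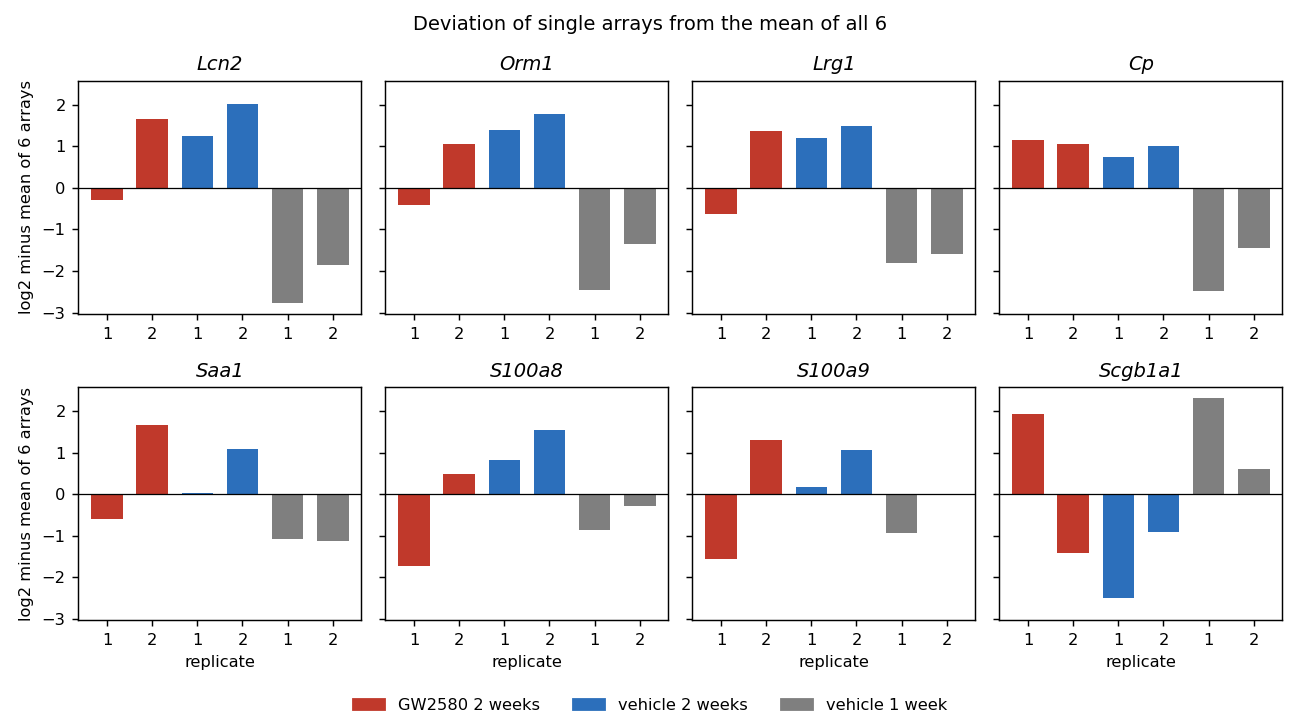
Log2 expression minus the mean of the 6 arrays for 4 members and for Saa1, S100a8, S100a9 and Scgb1a1, with 1 bar per array in the order GW2580, vehicle at 2 weeks and vehicle at 1 week. The first GW2580 array is below the mean for Lcn2, Orm1, Lrg1, Saa1, S100a8 and S100a9 and above it for Cp and Scgb1a1.

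Neutrophils also make lipocalin 2, haptoglobin and Lrg1, so their markers were set beside these values. The log2 of the summed level of the 11 neutrophil markers with a probe set was 9.42 and 10.45 with GW2580, 10.31 and 10.90 with vehicle at 2 weeks and 9.57 and 9.85 with vehicle at 1 week. The first GW2580 array was the lowest of the 6 on this measure. The same array was the highest of the 6 for 4 of the 8 tested markers, Mmp9 (6.93), Ltf (6.97), Ngp (5.43) and Elane (5.85), and 6 of the 8 had positive differences with GW2580 against vehicle at 2 weeks (median 0.10). S100a8 read 6.93 and 9.14 with GW2580, 9.46 and 10.20 with vehicle at 2 weeks and 7.77 and 8.37 with vehicle at 1 week. Of the 11 markers 3 (Mpo, Camp and Mmp8, all granule genes) lay below the filter, and Elane, Csf3r and Cxcr2 stayed at 5.14 to 5.85. None of the 8 tested markers passed limma's adjusted p of 0.05 in the 3 comparisons. Mmp9 had the smallest, both from 1 to 2 weeks in vehicle mice (-0.58, adjusted p 0.0717) and with GW2580 against vehicle at 2 weeks (0.58, adjusted p 0.133). The other Mmp9 probe set differed more in the same comparisons, by -0.89 and 0.84. The part of neutrophils in the members' differences was not tested.

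Other cell types varied between arrays too. The summed level of 15 lung epithelium markers was 12.03 and 10.88 with GW2580, 11.70 and 11.50 with vehicle at 2 weeks and 12.30 and 11.73 with vehicle at 1 week. Of the 14 tested, the 2 surfactant genes Sftpa1 and Sftpd fell with GW2580 against vehicle at 2 weeks (-1.78 and -1.12, limma adjusted p 0.0489 and 0.0445), where 0.298% of all tested genes fell. Differences were negative for 9 of the 14 and positive for 5, among them the club cell genes Scgb1a1 (1.97) and Scgb3a2 (1.64), which did not pass. No gene at all was called in that comparison without the first GW2580 array, without the second 2-week vehicle array, without either 1-week array or on only the 4 arrays compared. The summed level of 14 macrophage and monocyte markers was 11.80 and 12.41 with GW2580, 12.15 and 12.38 with vehicle at 2 weeks and 11.82 and 12.01 with vehicle at 1 week. For the 12 fibroblast and smooth muscle markers it was 12.04 and 10.60 with GW2580, 10.88 and 10.98 with vehicle at 2 weeks and 12.81 and 11.61 with vehicle at 1 week. Their part in the members' differences was not tested.

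The last comparison set GW2580 at 2 weeks against vehicle at 1 week, when dosing began, and it shares the 1-week arrays with the contrast that chose the members. Of the 7 members 1 passed limma's adjusted p of 0.05, where 0.512% of tested genes did (0.359% higher and 0.153% lower). This was Cp, at 11.25 and 11.18 in GW2580 mice, against 7.65 and 8.67 in vehicle mice at 1 week, a difference of 3.06 (SE 0.29, limma adjusted p 0.00767). Cp missed the threshold without the second GW2580 array (adjusted p 0.104) and without the first 1-week array (adjusted p 0.0504).

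Lcn2, Orm1 and Lrg1 had both GW2580 arrays above both 1-week arrays, with differences of 3.01 (SE 0.59), 2.23 (SE 0.49) and 2.07 (SE 0.52), and did not pass (limma adjusted p 0.0713, 0.0836 and 0.109). Without the first GW2580 array all 3 passed, at 3.99, 2.97 and 3.08 (adjusted p 0.0296, 0.0409 and 0.0103). The first GW2580 array alone stood above the 1-week mean by 2.03 for Lcn2, 1.49 for Orm1 and 1.07 for Lrg1. Saa3 differed by -0.89, Hp by 0.005 and Steap4 by -0.024 (limma adjusted p 0.29, 0.993 and 0.965). Groups did not overlap for 4 members with GW2580 higher and 1 with GW2580 lower, where this held for 18.8% and 27.9% of tested genes.

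Cp had 8 probe sets, and they differed in their response to GW2580. All 8 were higher in vehicle mice at 2 weeks than at 1 week, by 1.03 to 4.14 log2 units. With GW2580 against vehicle at 2 weeks 5 had positive and 3 negative differences, and 6 of the 8, of both signs, carry the same source accession in the annotation. The brightest 4 differed by 0.21 to 0.55 and the next, 1417496_at, by 0.80.

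The probe set 1448735_at read 8.45 and 8.71 with GW2580, 9.52 and 9.62 with vehicle at 2 weeks and 4.80 and 6.05 with vehicle at 1 week. Both GW2580 arrays lay below both 2-week vehicle arrays, as they did for 31.5% of tested genes, and the difference was -0.99 (SE 0.34). For 1417497_at the values were 6.59 and 7.09 with GW2580, 7.5 and 7.76 with vehicle at 2 weeks and 4.96 and 5.33 with vehicle at 1 week, and GW2580 differed from vehicle at 2 weeks by -0.79 (SE 0.20). Neither passed over all 45037 probe sets (limma adjusted p 0.241 and 0.134), and the third, 1441326_at, lay below the filter and differed by -0.50.

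Subtracting the brightest Cp probe set on the same array removes only what moved all of them by the same amount. Probe sets that respond more or less steeply to the same change would still differ. For 1448735_at this offset was -2.80 and -2.47 with GW2580, -1.33 and -1.504 with vehicle at 2 weeks and -2.85 and -2.61 with vehicle at 1 week. Both GW2580 arrays lay below both 2-week vehicle arrays. For 1417497_at the offset was -4.66 and -4.09 with GW2580, -3.35 and -3.36 with vehicle at 2 weeks and -2.69 and -3.34 with vehicle at 1 week, again with GW2580 below vehicle at 2 weeks. On the first 1-week array both probe sets read under the filter on low values (4.80 and 4.96), so their offsets there cannot be taken as measured and no comparison with 1 week is drawn. For 1417495_x_at and 1448734_at the mean offsets with GW2580 and with vehicle at 2 weeks differed by -0.027 and 0.036. The offset of 1455393_at ran the other way, at -0.75 and -0.48 with GW2580, against -0.83 and -1.03 with vehicle at 2 weeks. No test was run on the offsets, and no share over other genes was computed for them. The offset of 1417496_at was -2.57 on the second 2-week vehicle array, the one with the strong 3′ lean of beta-actin, and -1.64 to -1.23 on the others; the part of RNA quality in it was not tested. Which Cp transcripts each probe set detects was not analysed here.

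**Figure D3:**
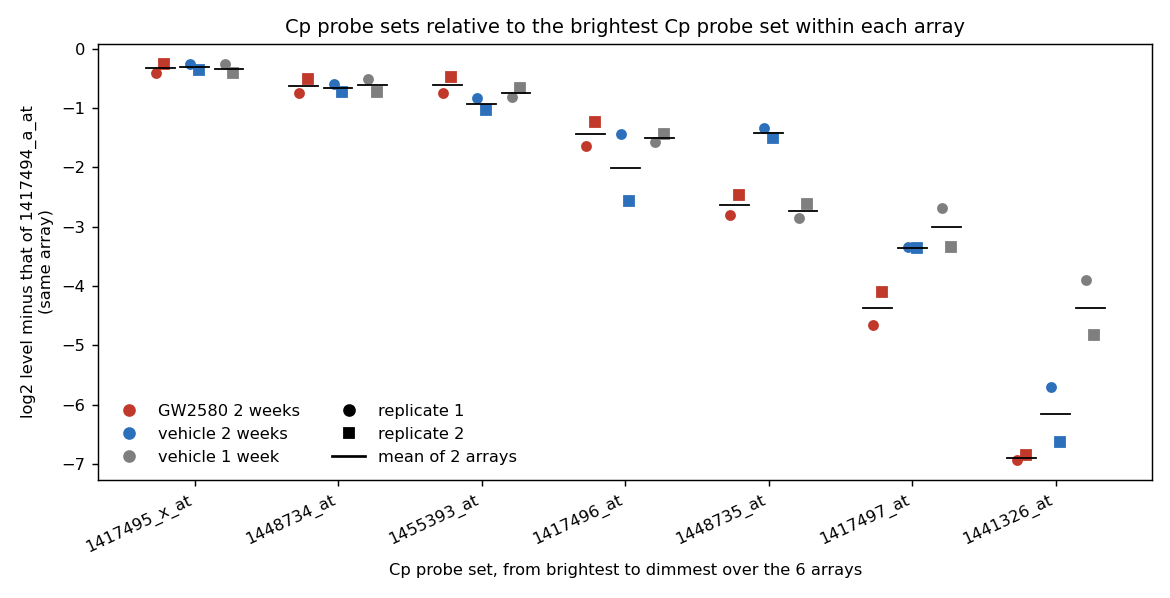
Log2 level of 7 Cp probe sets minus that of the brightest Cp probe set on the same array, with circles for replicate 1, squares for replicate 2 and bars for group means. For 1448735_at both GW2580 arrays lie below both 2-week vehicle arrays, while 1417495_x_at and 1448734_at stay nearly level over the 3 groups.

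Of 27 other acute-phase genes 23 had a probe set and 12 passed the filter. The liver genes Crp, Fga, Fgb, Fgg and Hpx were among those below it. Fgg, near background, read 3.96 and 3.92 with GW2580, 4.71 and 4.55 with vehicle at 2 weeks and 4.08 and 3.95 with vehicle at 1 week. From 1 to 2 weeks in vehicle mice 4 of the 12 rose and none fell, where 3.74% of all tested genes rose and 2.71% fell. The median difference was 0.69, against 0.02 over all genes. The same contrast chose the members, and this list and those below were chosen with earlier results of these data known. Such counts are therefore not independent of that choice. Lbp, whose product hands bacterial lipopolysaccharide to CD14, read 8.43 and 8.90 in vehicle mice at 2 weeks, against 7.004 and 6.33 in vehicle mice at 1 week, and rose by 1.996 (SE 0.46, limma adjusted p 0.0439); its dim second probe set differed by 0.21. Orm2, a neighbour and close relative of Orm1, read 6.08 and 6.34 in vehicle mice at 2 weeks, against 4.81 and 4.89 in vehicle mice at 1 week, and rose by 1.36 (SE 0.19, limma adjusted p 0.0139). Probe sets of Orm1, Orm2 and Orm3 may share signal, because these genes are alike in sequence.

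Itih4, an inter-alpha-trypsin inhibitor heavy chain gene, rose by 0.91 (limma adjusted p 0.0332), and Mt2, a zinc-binding and copper-binding metallothionein gene, by 0.82 (limma adjusted p 0.0331). The 4 calls became 0 when the second 2-week vehicle array or the first 1-week array was left out, 1 without the first 2-week vehicle array and 2 without the second 1-week array, at medians of 0.54 to 0.81.

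Against vehicle at 2 weeks none of the 12 passed limma's adjusted p with GW2580, and 8 of the 12 differences were negative (median -0.25, against -0.048 over all genes). The smallest p belonged to Itih4, at 5.15 and 5.26 with GW2580, against 5.83 and 5.73 with vehicle (-0.57, limma adjusted p 0.167), and Orm2, at 5.40 and 5.94 with GW2580, against 6.08 and 6.34 with vehicle (-0.54, limma adjusted p 0.199). Without the first GW2580 array the median was 0.014. Lbp read 7.36 and 8.94 with GW2580, against 8.43 and 8.90 with vehicle, again low on the first GW2580 array.

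**Figure D4:**
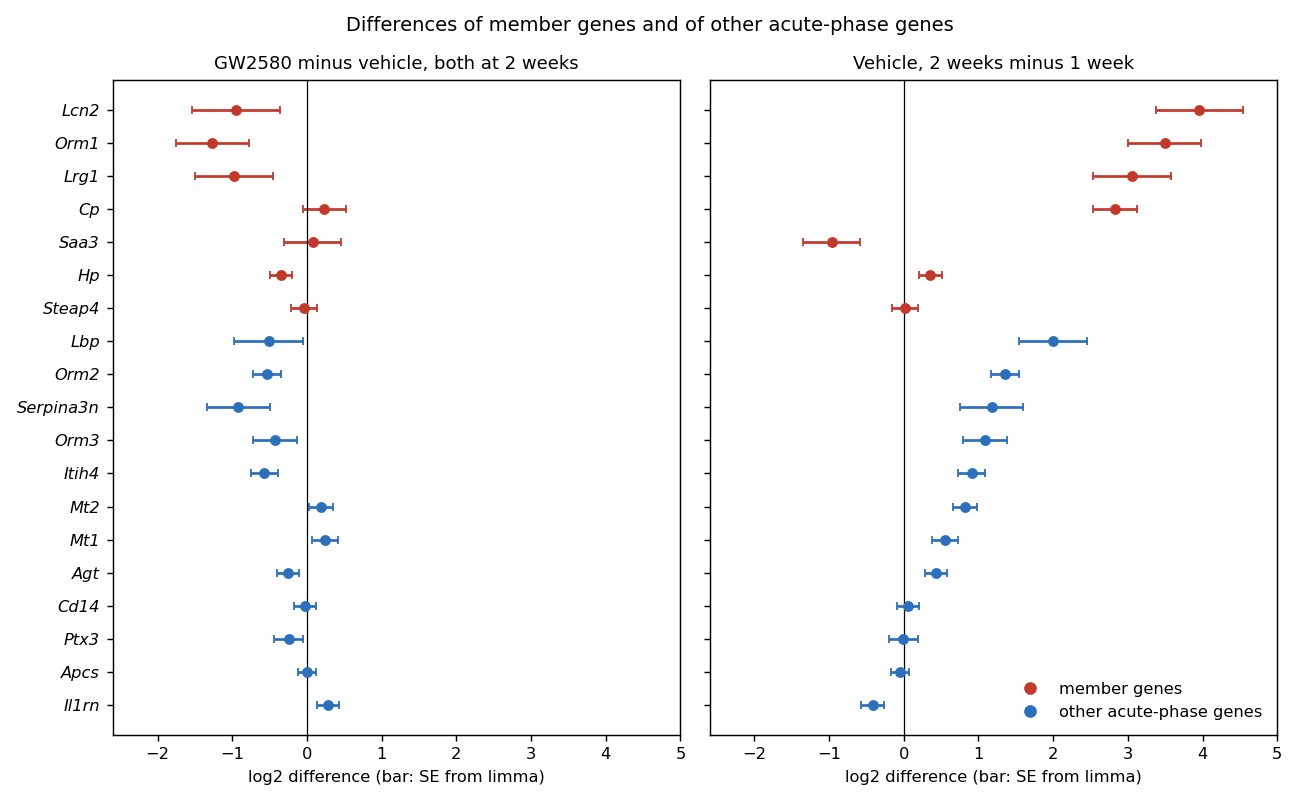
Log2 differences with limma standard errors for the 7 measured members and the 12 other acute-phase genes above the filter, for GW2580 minus vehicle at 2 weeks and for vehicle at 2 weeks minus 1 week. Lcn2, Orm1, Lrg1 and Cp lie between 2.83 and 3.96 over time, and the 7 members between -1.27 and 0.23 with GW2580.

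Of 17 other complement genes 13 were tested. C1ra, which encodes the C1r protease of the classical pathway, rose from 1 to 2 weeks in vehicle mice by 1.09 (SE 0.18, limma adjusted p 0.0209) and was also higher with GW2580 than at 1 week (1.31, SE 0.18, limma adjusted p 0.0324). It read 9.73 and 9.89 with GW2580, 9.36 and 9.82 with vehicle at 2 weeks and 8.64 and 8.37 with vehicle at 1 week. No gene of the list was called over time without the second 2-week vehicle array or without either 1-week array, nor for GW2580 against 1 week without the second GW2580 array, without either 1-week array or on all probe sets. The other 12 did not pass in these comparisons, and none of the 13 passed with GW2580 against vehicle at 2 weeks, where C1qc and C1qa, subunits of the C1q initiator, had the smallest p (-0.58 and -0.73, limma adjusted p 0.13 and 0.18).

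None of the 8 tested genes for other secreted antimicrobial proteins passed in the 3 comparisons. Slpi, a secreted protease inhibitor of epithelium, read 13.02 and 13.46 with GW2580, 12.97 and 13.38 with vehicle at 2 weeks and 12.14 and 12.53 with vehicle at 1 week (limma adjusted p 0.0576 from 1 to 2 weeks in vehicle mice). S100a8 and the airway gene Bpifa1 had the smallest p with GW2580 against vehicle at 2 weeks (-1.80 and 2.14, limma adjusted p 0.192 and 0.327). Of 7 genes that fall in the acute phase of the liver, Alb, Ttr and Apoa1 were tested and none passed.

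Of 13 tested genes for inducing cytokines and their receptors, 1 passed from 1 to 2 weeks in vehicle mice: the IL-6 family cytokine gene Il11 fell by 0.89 (SE 0.19, limma adjusted p 0.0374). It read 6.56 and 6.93 in vehicle mice at 2 weeks, against 7.84 and 7.42 in vehicle mice at 1 week, while Il6 lay below the filter at 3.85 to 4.39. Of 13 transcription factor and feedback genes 1 passed: Nfkb2, an NF-kB subunit gene, fell by 1.01 (SE 0.15, limma adjusted p 0.0149), with -0.62 on its other probe set. In both lists no gene was called without either 2-week vehicle array or without the first 1-week array. The C/EBP gene Cebpa read 7.27 and 7.72 in vehicle mice at 2 weeks, against 6.54 and 6.76 in vehicle mice at 1 week (0.85, limma adjusted p 0.0555). Stat3 read 10.35 and 10.50 in vehicle mice at 2 weeks, against 9.79 and 9.98 in vehicle mice at 1 week (0.54, limma adjusted p 0.0982). Its other probe sets differed by -0.28, -0.28 and 0.015. The NF-kB cofactor gene Nfkbiz, known in mouse cells as needed for Lcn2 induction, was like Cebpa and Stat3 picked after its values were seen. Nfkbiz read 8.86 and 9.47 in vehicle mice at 2 weeks, against 10.11 and 10.41 in vehicle mice at 1 week (-1.10, limma adjusted p 0.0691), with -0.68 and -1.04 on its other probe sets.

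With GW2580 against vehicle at 2 weeks none of these genes passed. The IL-6 receptor subunit gene Il6st read 9.58 and 9.26 with GW2580, against 8.49 and 8.78 with vehicle (0.79, SE 0.16, limma adjusted p 0.0799), with 0.13 to 0.45 on its other probe sets. The feedback inhibitor gene Socs3 read 10.90 and 10.60 with GW2580, against 9.84 and 10.12 with vehicle (0.77, SE 0.17, limma adjusted p 0.0861), with 0.51 and 0.65 on its other probe sets. For both genes each GW2580 array lay above both vehicle arrays, as held for 18.3% of tested genes.

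Of 20 receptor and partner genes of the members 14 were tested, and none passed in the 3 comparisons. Steap2, a relative of Steap4, had the smallest p with GW2580, at 9.42 and 9.53 with GW2580, against 9.93 and 10.20 with vehicle (-0.59, limma adjusted p 0.0992). The other Steap2 probe sets differed by only -0.18 to -0.061. Steap1 differed by -0.49 in this comparison, with -0.76 on its other probe set. Of the 14 tested genes 8 had negative and 6 positive differences. For GW2580 against vehicle at 1 week the smallest p belonged to Steap1 (-0.67, limma adjusted p 0.0819), with -0.79 on its other probe set. Over the 7 lists 0 of 76 tested genes passed limma's adjusted p with GW2580 against vehicle at 2 weeks, with 16 at an unadjusted p under 0.05, where 2352 of all 13090 genes were. Against vehicle at 1 week 1 passed, with 19 at an unadjusted p under 0.05, where 2224 of all genes were. From 1 to 2 weeks in vehicle mice 5 rose and 2 fell, where 6.45% of all genes passed, with 27 at an unadjusted p under 0.05, where 3088 of all genes were.

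By the root mean square difference of centred log2 values over the 6 arrays, the genes nearest to the mean profile of the 7 members were Sphk1, Gstm1, Nrbp2, Txnip and Crebl2, at distances of 0.19 to 0.27. Sphk1, which encodes sphingosine kinase 1, read 6.88 and 7.57 with GW2580, 8.003 and 8.10 with vehicle at 2 weeks and 5.80 and 6.06 with vehicle at 1 week. Nearest to Lcn2 were Selenbp1, Inhbb and Arrdc2, at larger distances of 0.75 to 0.88; Selenbp1 read 9.31 and 9.73 with GW2580, 9.46 and 9.44 with vehicle at 2 weeks and 5.94 and 7.45 with vehicle at 1 week.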

How the data were processed

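Cells from 6 samples in 3 groups of 2 were profiled on Affymetrix Mouse Genome 430 2.0 arrays from 2 µg of total RNA each. The deposited values are log2 expression per probe set, made by the authors with RMA per the submitters' processing notes, with no version stated. RMA brings arrays to a common distribution, so a shift of most genes cannot be seen; array medians were 5.57 to 5.63. The number of arrays limits the precision.

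Of 45101 probe sets 64 were controls. Platform annotation named 1 gene for 34945 of the rest, several for 932 and none for 9160, and 34741 were found in RefSeq's gene table with 0 symbols changed. Each gene was represented by its brightest probe set, and 13090 of 18193 genes, all 7 measured members included, reached the 40th percentile of probe set means (4.97). Arrays of a group correlated at 0.988 to 0.992 across genes. limma 3.58.1 in R 4.3.3 fitted 1 mean per group over all 6 arrays (3 residual and 4.97 prior degrees of freedom), with Benjamini-Hochberg adjustment over the 13090 genes and a threshold of 0.05; single probe sets were fitted over all 45037. The code was tested on simulated data. Members and gene lists were chosen with earlier results of these data known. From each list the text names up to 4 called genes of largest difference or up to 2 of smallest p, markers at their extremes or near background, and the nearest profiles; other genes serve as examples picked after their values were seen. Alternatives were no filter, averaged probe sets, all probe sets, a common 75th percentile, eBayes with trend, only the 4 arrays compared, a replicate block and each array left out.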

Additional observations from a re-analysis of the deposited data

How the results depend on the processing

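Over the 7 members and 13 alternatives, 83 of 91 values of GW2580 against vehicle at 2 weeks kept their direction and side of the threshold. Against 1 week 78 of 91 did. A difference could move only with averaged probe sets, a common 75th percentile or an array of a compared group left out. The other alternatives leave it unchanged by construction, so these counts do not measure how stable the directions are. Sign changes numbered 7 and 6. Averaging probe sets gave -0.028 for Cp against vehicle and 0.0094 for Steap4 against 1 week, and a common 75th percentile gave -0.0044 for Hp against 1 week. Leaving out single arrays gave -1.93 to 0.029 for Lcn2, -1.98 to 0.026 for Lrg1, -0.22 to 0.38 for Saa3 and -0.28 to 0.19 for Steap4 against vehicle, and -0.18 to 0.19 for Hp and -0.26 to 0.21 for Steap4 against 1 week. The cause was not tested.

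Members called numbered 0 with all arrays and 0 to 1 with arrays left out against vehicle, and 1 and 0 to 4 against 1 week. Under the replicate block 3 passed against 1 week, Lcn2 (adjusted p 0.00516) and Orm1 (0.0111) beside Cp. From 1 to 2 weeks 844 genes passed, 0 to 1059 with arrays left out. Against vehicle 48 passed, 0 to 167 with arrays left out, 193 on all probe sets, 131 with trend, 74 with no filter, 0 on only the 4 arrays and 154 under the replicate block. Against 1 week 67 passed, 0 to 169 with arrays left out, 36 on all probe sets, 139 with trend, 24 on only the 4 arrays and 182 under the replicate block. Listed genes passing from 1 to 2 weeks numbered 7, 0 to 15 with arrays left out and 15 on only the 4 arrays or under the replicate block. Against 1 week they numbered 1, 0 to 4 with arrays left out, 0 on all probe sets, 6 under the replicate block and 2 at a common 75th percentile, with trend, with no filter or with averaged probe sets; against vehicle 0, and 0 to 2 with arrays left out. With 1 array left, a group is assumed to vary like the others. The labels tie no replicate number to a mouse or batch, and the differences between replicates 1 and 2 correlated across genes at 0.0094 between GW2580 and 2-week vehicle, 0.29 between GW2580 and 1 week and 0.0022 between the vehicle groups.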
